A study of Homo sapiens with 6 samples.

Results

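Transcripts of 10 proteins that myeloid cells pack into their granules were followed in Kasumi-1 cells, a human line grown from an acute myeloid leukaemia that carries the RUNX1-RUNX1T1 fusion. The genes were taken by symbol, with earlier results of these data known: MPO, ELANE, PRTN3, AZU1, CTSG, LYZ, MS4A3, PRG2, RNASE2 and SRGN. Each had 1 row among the 31966 genes of the deposited count table. Of the 10, 9 passed a filter on low counts that 18486 genes passed, and PRG2 did not. The comparison asked what the loss of fibrillarin does to messenger RNA levels. FBL encodes fibrillarin, the enzyme that adds 2'-O-methyl groups to ribosomal RNA.

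There were 3 FBL knockdown samples, with a hairpin RNA against FBL (shFBL), and 3 control samples, with a control hairpin (shLUC). Both hairpins were switched on by doxycycline, and every sample received it at 100 ng/ml for 72 h. The labels give no clone. They do not say whether replicates were grown as separate cultures, so the p-values describe the scatter among these 6 samples, part or all of which may be technical. The labels name 1 hairpin per target, so loss of FBL and any other effect of that hairpin cannot be told apart.

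Azurophil (primary) granules are made at the promyelocyte stage of neutrophil development. They hold myeloperoxidase, the serine proteases elastase, proteinase 3 and cathepsin G, and the inactive protease homologue azurocidin. The acidic proteoglycan serglycin binds the basic cargo. Transcription of these genes is driven in myeloid precursors by factors such as PU.1, C/EBP proteins, RUNX1 and MYB. Serine proteases of the group are switched on by the cathepsin C dipeptidase.

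Library totals were 85556322 to 95023102 counts in knockdown and 88541034 to 103148412 in control samples. FBL itself fell to 43.8 ± 10.8 CPM in knockdown, against 558 ± 19.6 CPM in control samples (SD, n = 3 each; CPM is counts scaled to library totals adjusted by TMM factors). Transcripts of the mitochondrial genome took 14.7% to 18.8% of knockdown and 12.4% to 15.2% of control counts. Libraries also differed in their GC-rich transcripts. Among 7199 genes of at least 10 CPM, the 720 richest in GC (at least 62.6%) deviated from their mean over the 6 libraries by 0.13, -0.12 and -0.04 on the log2 scale in knockdown replicates 1, 2 and 3. In control replicates 1, 2 and 3 these deviations were -0.26, 0.30 and -0.01. The control samples therefore held both the library poorest and the library richest in GC-rich transcripts. ELANE, PRTN3 and AZU1 are therefore given with and without a correction for GC content.

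The cells carried myeloid markers. The receptor KIT stood at 76.9 CPM in knockdown and 84.8 CPM in control samples, the myeloid antigen CD33 at 39.0 CPM against 44.8 CPM, and the peptidase ANPEP (CD13) at 724 CPM against 479 CPM. The leukocyte antigen PTPRC (CD45) was low, at 0.954 CPM in knockdown and 0.758 CPM in control samples. Of the 8 blast markers, 2 were called higher (ANPEP and CD34) and 0 lower. Their summed level was 912 to 955 CPM in knockdown against 688 to 729 CPM in control samples, most of it ANPEP. Without a call, KIT, CD33 and SPI1 (70.2 against 80.8 CPM) had lower means in knockdown, and RUNX1T1, PTPRC and CD38 higher ones. Of the 5 mature neutrophil markers 3 were found, and their sum was 643 to 737 CPM in knockdown against 502 to 646 CPM in control samples. It came from MMP25 (401 against 392 CPM) and the G-CSF receptor CSF3R (279 against 173 CPM), and CSF3R rose (0.69 ± 0.11, edgeR adjusted p = 0.00101). The 5 monocyte markers summed to 3.06 to 4.06 CPM in knockdown and 1.92 to 2.04 CPM in control samples, and CSF1R rose (0.93 ± 0.14, edgeR adjusted p = 0.000736). The 4 erythroid markers found gave 13.0 to 13.6 CPM against 7.11 to 10.2 CPM, nearly all of it KLF1, which rose (0.62 ± 0.13, edgeR adjusted p = 0.00376). T and NK cell markers (4 found) summed to 1.25 to 1.32 CPM against 0.643 to 0.931 CPM, and NKG7 rose (1.24 ± 0.19, edgeR adjusted p = 0.000835). CD3E, the other T and NK marker tested, lay the other way without a call (-0.86 ± 0.40, edgeR adjusted p = 0.124). B cell markers (3 found) gave 1.46 to 1.78 CPM against 1.22 to 1.45 CPM, and megakaryocyte markers (2 found) 1.00 to 1.09 CPM against 0.976 to 1.42 CPM. None of the markers found was at 0 in every library. Their part in the changes of the granule genes was not tested. In bulk RNA, fewer cells with a transcript and less transcript per cell cannot be told apart.

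In FBL knockdown samples, granule genes were called in both directions, as were genes over the whole set tested. The transcripts of the classical azurophil cargo MPO and CTSG fell 1.34-fold and 1.35-fold, the serglycin transcript SRGN rose 1.35-fold, and the weakly expressed MS4A3 and LYZ rose 2.07-fold and 2.81-fold. ELANE, PRTN3, AZU1 and RNASE2 did not pass the test. Thus 3 of the 9 tested genes were called higher and 2 lower (edgeR quasi-likelihood test, Benjamini-Hochberg adjusted p under 0.05 over all tested genes). Over all tested genes 32.8% were called, 15.8% higher and 17.0% lower (2920 and 3141 genes). Upper-quartile scaling turned this split to 3597 higher and 2528 lower. Without knockdown replicate 2 or 3, 1 granule gene was called lower. Groups did not overlap for 4 of the 9 genes (MPO, CTSG, MS4A3 and LYZ), as for 45.2% of all tested genes. The median log2 fold change was -0.11 over the 9 genes and -0.01 over all tested genes.

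**Figure D1:**
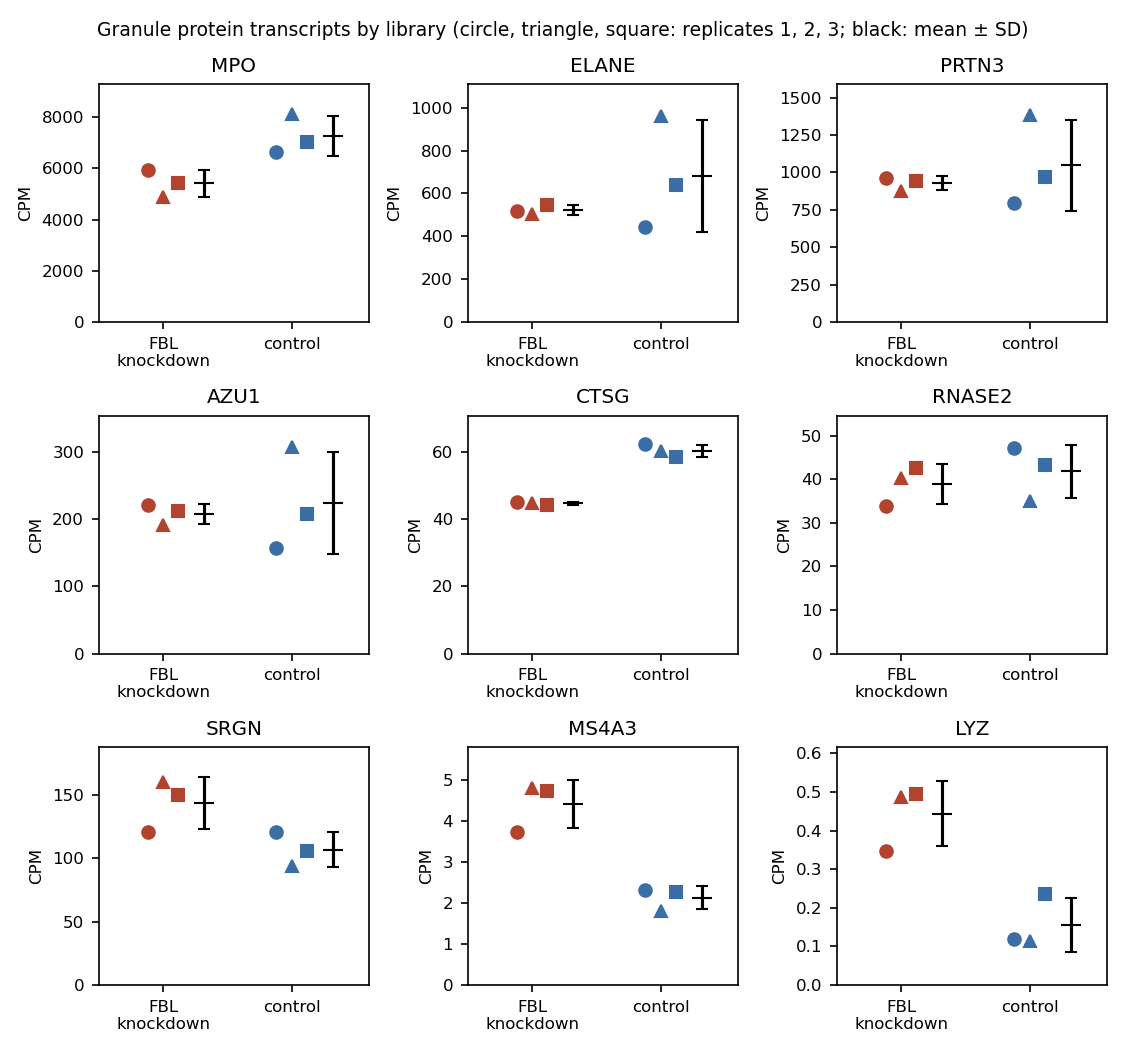
Level of each tested granule transcript in CPM (linear axes from 0) in the 3 FBL knockdown libraries, red, and the 3 control libraries, blue, with mean ± SD in black. MPO and CTSG lie lower in every knockdown library than in any control library, MS4A3 and LYZ lie higher, and the control libraries of ELANE, PRTN3 and AZU1 spread on both sides of the knockdown libraries.

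Compared per transcript length, the genes spanned a wide range. RPKM, reads scaled by transcript length and library total as the authors deposited them, put MPO first with a mean of 1533 ± 166 in knockdown and 2062 ± 228 in control samples (SD, n = 3 each). PRTN3 (807 ± 49.5 and 918 ± 270) and ELANE (508 ± 22.5 and 664 ± 258) followed, and these neighbours overlapped in control samples although PRTN3 exceeded ELANE in each library. AZU1 (116 ± 9.55 and 126 ± 43.5) and SRGN (117 ± 15.1 and 87.8 ± 10.9) were not separable by their spread. RNASE2 (51.4 ± 5.47 and 55.5 ± 7.99) exceeded CTSG (32.5 ± 0.817 and 44.0 ± 1.31) in each library. Far below were MS4A3 (2.11 ± 0.252 and 1.02 ± 0.132) and LYZ (0.251 ± 0.0443 and 0.0886 ± 0.0401).

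MPO (ENSG00000005381, GRCh38 chromosome 17, 58269856 to 58280935, minus strand) encodes myeloperoxidase, the haem enzyme that makes hypochlorous acid from hydrogen peroxide and chloride. It stood at 5921, 4893 and 5420 CPM in knockdown replicates 1 to 3, against 6619, 8116 and 7027 CPM in control replicates 1 to 3. Every knockdown library lay below every control library. The log2 fold change was -0.42 ± 0.11 (SE, edgeR adjusted p = 0.0134). By RPKM it ranked 55, 61 and 56 among all genes in knockdown libraries and 41, 36 and 41 in control libraries. The call was lost without knockdown replicate 2 (edgeR adjusted p = 0.0647) and without knockdown replicate 3 (edgeR adjusted p = 0.0927), with the fall between 0.34 and 0.49 on the log2 scale in all 20 alternatives.

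MPO made up most of the reads of the group. The 10 transcripts together came to 7824, 6710 and 7365 CPM in knockdown against 8246, 10961 and 9048 CPM in control libraries. MPO made up 75.7%, 72.9% and 73.6% of this sum in knockdown and 80.3%, 74.0% and 77.7% in control libraries. Without MPO the sums were 1903, 1817 and 1945 CPM against 1627, 2845 and 2021 CPM, so that the groups overlapped.

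CTSG (ENSG00000100448, chromosome 14, 24573522 to 24576260, minus strand) encodes cathepsin G, a protease with chymotrypsin-like specificity. Its replicates were the tightest of the group, at 45.3, 44.8 and 44.3 CPM in knockdown against 62.3, 60.3 and 58.5 CPM in control libraries. The log2 fold change of -0.43 ± 0.08 (SE, edgeR adjusted p = 0.00171) kept its call in all 20 alternatives, between -0.46 and -0.37. Among tested genes of at least 10 CPM, 27.7% were called lower.

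ELANE, PRTN3 and AZU1 lie in a row on the plus strand of chromosome 19. AZU1 (825097 to 832018) encodes azurocidin, an antimicrobial and chemotactic protein that has lost protease activity. PRTN3 (840960 to 848175) encodes proteinase 3, the main target of anti-neutrophil cytoplasmic antibodies in granulomatosis with polyangiitis. ELANE (851014 to 856247) encodes neutrophil elastase, mutated in cyclic and severe congenital neutropenia. The 5′ windows of the PRTN3 and AZU1 genes are set beside those of CTSG, which fell, and MS4A3, which rose, so that genes of both directions can be compared. Promoters are RefSeq sequence on GRCh38.p14, 250 bases before to 50 bases after the RefSeq start. Of the 10 genes, 5 had such a sequence (also RNASE2). For AZU1 the whole window lies inside the gene bounds given above. Capitals mark matches on either strand to GAGGAA (PU.1), TTNNGNAA (C/EBP), AACGG (MYB) and TGTGGT (RUNX).
PRTN3, chr19:840749-841048, plus strand: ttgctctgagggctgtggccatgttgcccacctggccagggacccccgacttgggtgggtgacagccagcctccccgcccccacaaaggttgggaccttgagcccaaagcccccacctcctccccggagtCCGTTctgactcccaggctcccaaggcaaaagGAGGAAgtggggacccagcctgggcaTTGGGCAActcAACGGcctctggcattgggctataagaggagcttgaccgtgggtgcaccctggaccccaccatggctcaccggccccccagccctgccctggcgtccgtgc
AZU1, chr19:827587-827886, plus strand: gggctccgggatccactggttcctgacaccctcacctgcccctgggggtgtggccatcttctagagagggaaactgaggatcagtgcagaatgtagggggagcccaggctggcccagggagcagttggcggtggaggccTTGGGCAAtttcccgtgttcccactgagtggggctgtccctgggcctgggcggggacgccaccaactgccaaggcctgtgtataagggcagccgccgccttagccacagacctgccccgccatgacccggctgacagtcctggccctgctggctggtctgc
CTSG, chr14:24576201-24576500, minus strand: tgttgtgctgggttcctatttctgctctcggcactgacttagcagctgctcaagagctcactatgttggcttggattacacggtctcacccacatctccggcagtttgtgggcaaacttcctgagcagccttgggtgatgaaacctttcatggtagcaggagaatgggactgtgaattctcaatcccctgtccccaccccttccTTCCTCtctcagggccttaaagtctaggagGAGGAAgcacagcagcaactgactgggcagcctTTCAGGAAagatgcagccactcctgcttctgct
MS4A3, chr11:60056415-60056714, plus strand: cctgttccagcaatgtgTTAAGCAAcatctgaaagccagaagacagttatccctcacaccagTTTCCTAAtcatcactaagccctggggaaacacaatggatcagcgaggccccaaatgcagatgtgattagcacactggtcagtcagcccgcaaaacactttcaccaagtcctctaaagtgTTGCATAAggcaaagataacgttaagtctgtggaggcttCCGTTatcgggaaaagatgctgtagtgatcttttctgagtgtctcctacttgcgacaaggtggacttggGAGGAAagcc

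The PRTN3 and AZU1 windows share the same C/EBP-type octamer, TTGGGCAA, at 62 and 111 bases before the start. PRTN3 also holds GAGGAA at 88 bases, AACGG at 51 bases and the reverse complement of AACGG at 120 bases before it. CTSG has GAGGAA at 16 bases and its reverse complement at 46 bases before the start, plus 1 C/EBP-type match after it. MS4A3 has 3 C/EBP-type matches, 1 AACGG and 1 GAGGAA. No window held TGTGGT. Of 35116 promoters of this length, GAGGAA was in 27.9%, TTNNGNAA in 36.8%, AACGG in 19.7% and TGTGGT in 13.1%, so single matches are common. No match overlapped another in these 4 windows. A match is not a shown binding site.

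ELANE stood at 519, 503 and 547 CPM in knockdown against 443, 962 and 637 CPM in control libraries. Control replicate 1 was the lowest and control replicate 2 the highest of all 6, so that the knockdown values lay inside the control range. The log2 fold change was -0.38 ± 0.21 (SE, 95% interval -0.85 to 0.08, edgeR adjusted p = 0.193). PRTN3 was likewise lowest in control replicate 1 and highest in control replicate 2. It stood at 960, 873 and 945 CPM in knockdown against 794, 1385 and 966 CPM in control libraries, with a log2 fold change of -0.18 ± 0.16 (SE, 95% interval -0.54 to 0.18, edgeR adjusted p = 0.436). AZU1 was at 220, 191 and 211 CPM against 157, 307 and 207 CPM, with the same libraries at both ends and a log2 fold change of -0.11 ± 0.19 (SE, 95% interval -0.53 to 0.31, edgeR adjusted p = 0.694).

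The highest library exceeded the lowest 1.09-fold in knockdown and 2.17-fold in control samples for ELANE, 1.10-fold and 1.75-fold for PRTN3, and 1.15-fold and 1.96-fold for AZU1. The median of this ratio over 7206 genes of at least 10 CPM was 1.14 in knockdown and 1.16 in control samples. These transcripts are rich in GC, at 66.8%, 66.4% and 63.4%, and the control libraries at the ends of their range were those at the ends of the GC scale. When each library was corrected for a smooth trend of CPM on GC, ELANE came to 455, 514 and 531 CPM in knockdown against 569, 805 and 681 CPM in control libraries, and the groups no longer overlapped. On this scale ELANE fell by 0.45 (edgeR adjusted p = 0.00309) and PRTN3 fell by 0.27 (edgeR adjusted p = 0.00778), while AZU1 was at -0.18 (edgeR adjusted p = 0.17). The number of granule genes called lower was then 4 in place of 2, namely MPO, CTSG, ELANE and PRTN3. More genes were called on this scale over all tested genes, 20.8% higher and 25.9% lower of 18439. The correction removes any GC-linked difference between libraries, whatever its source.

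After the GC correction, the highest control library exceeded the lowest 1.42-fold for ELANE, 1.16-fold for PRTN3 and 1.44-fold for AZU1. Libraries were left out in turn only without this correction, and the values then turned on single control libraries. Without control replicate 1, ELANE fell by 0.62 (edgeR adjusted p = 0.00513). Without control replicate 2, ELANE was at -0.05 (edgeR adjusted p = 0.781), PRTN3 at 0.07 (edgeR adjusted p = 0.626) and AZU1 at 0.19 (edgeR adjusted p = 0.204).

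**Figure D2:**
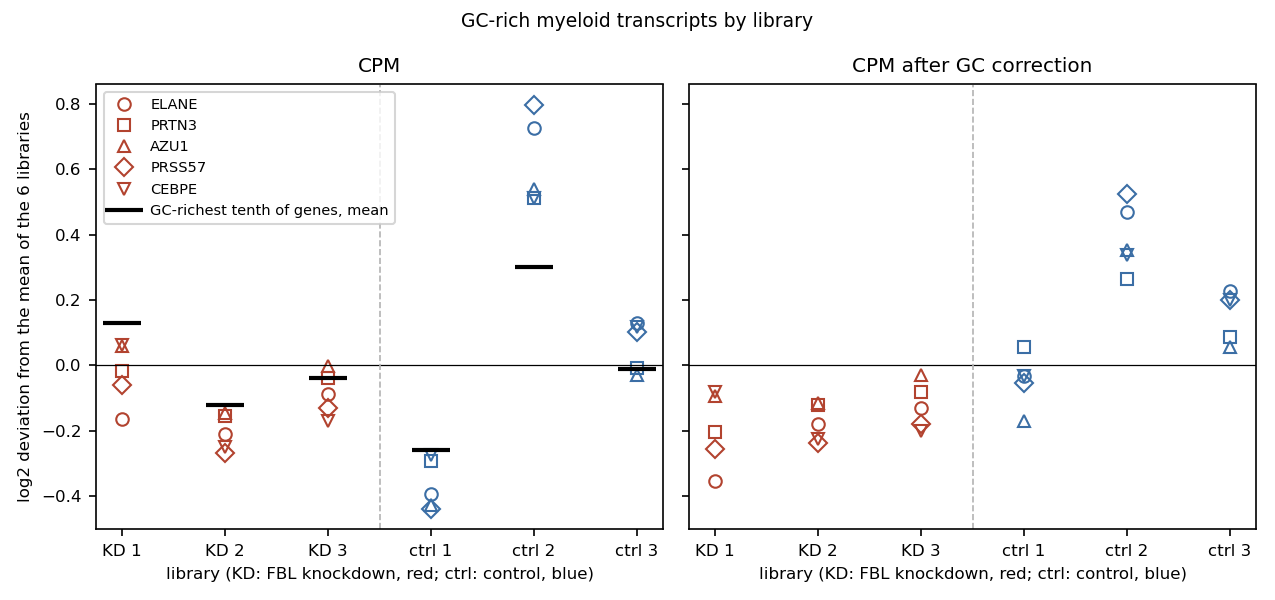
Log2 deviation of 5 GC-rich myeloid transcripts (open symbols) from their mean over the 6 libraries, before (left) and after (right) correction for GC content, with the mean deviation of the 720 GC-richest genes as black bars on the left. Control library 2 lies highest for all 5 transcripts on both sides, and after correction 4 of the 5 (all but AZU1) have knockdown libraries wholly below the control libraries.

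Neighbours of the cluster were read in the same test. Of the protein-coding genes that start within 50 kb of any of the 3 genes, the splicing repressor PTBP1 fell (-0.37 ± 0.08, edgeR adjusted p = 0.00444), a call lost in 1 of 20 alternatives. PLPPR3, the richest in GC of these genes (71.3%; -0.28 ± 0.16, edgeR adjusted p = 0.196), the complement factor D gene CFD (0.17 ± 0.15, edgeR adjusted p = 0.434) and the Mediator subunit MED16 (-0.05 ± 0.17, edgeR adjusted p = 0.858) did not pass. After the GC correction PLPPR3 was at 226, 184 and 195 CPM in knockdown against 299, 245 and 280 CPM in control libraries, and fell by 0.45 (edgeR adjusted p = 0.000879). CFD, also a granule protein of myeloid cells, was at only 4.84 CPM in knockdown and 4.31 CPM in control samples. MED16 was at 0.17 without control replicate 2 and at 0.02 under upper-quartile scaling.

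**Figure D3:**
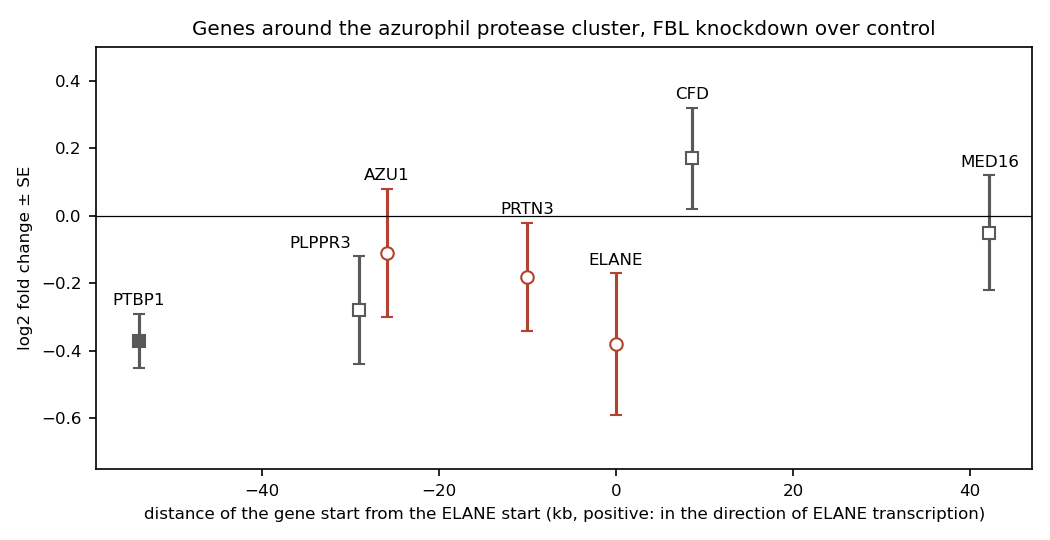
Log2 fold change ± SE (n = 3 against 3) of genes around the AZU1, PRTN3 and ELANE cluster against the distance of their starts from the ELANE start in kb. Circles are granule genes, squares are neighbours, and the filled square is the only gene of the plot past the threshold, PTBP1 at -0.37.

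Near the other granule genes, MPO had 1 coding neighbour in that window, TSPOAP1, which fell (-0.50 ± 0.11, edgeR adjusted p = 0.00523). Near RNASE2, METTL17 fell (-0.40 ± 0.08, edgeR adjusted p = 0.00307), and near PRG2, SLC43A3 fell (-0.38 ± 0.08, edgeR adjusted p = 0.0043). YEATS4 near LYZ (0.30 ± 0.13, edgeR adjusted p = 0.101) and VPS26A near SRGN (-0.19 ± 0.13, edgeR adjusted p = 0.274) did not pass.

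SRGN (ENSG00000122862, chromosome 10, 69088106 to 69104811, plus strand) encodes serglycin, on whose chondroitin sulphate chains proteases are stored. It moved against MPO and CTSG. Knockdown libraries held 121, 160 and 150 CPM and control libraries 121, 93.9 and 106 CPM, and the groups just overlapped, at 121 CPM in replicate 1 of each. The log2 fold change was 0.43 ± 0.12 (SE, edgeR adjusted p = 0.0209). This transcript is poor in GC (38.1%), and knockdown replicate 1, the library of that group richest in GC-rich transcripts, had its lowest knockdown level. After the GC correction the values were 132, 148 and 142 CPM against 113, 108 and 103 CPM, no longer overlapping, and SRGN rose by 0.38 (edgeR adjusted p = 0.000295). The call was lost without knockdown replicate 2 (adjusted p = 0.107), knockdown replicate 3 (adjusted p = 0.0651) or control replicate 3 (adjusted p = 0.0761), by edgeR. The table also has RF00017, a short RNA gene within SRGN.

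MS4A3 (ENSG00000149516, chromosome 11, 60056587 to 60071128, plus strand) encodes a membrane-spanning protein of granulocyte-monocyte progenitors and basophils. It was at 3.75, 4.81 and 4.73 CPM in knockdown against 2.33, 1.81 and 2.27 CPM in control libraries. Every knockdown library was higher, and the log2 fold change was 1.05 ± 0.15 (SE, edgeR adjusted p = 0.000434). The call held in all 19 alternatives that kept the gene.

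LYZ (ENSG00000090382, chromosome 12, 69348341 to 69354234, plus strand) encodes lysozyme, which cleaves bacterial peptidoglycan. Only 32, 45 and 44 reads were counted in knockdown against 11, 11 and 24 in control libraries, or 0.347, 0.488 and 0.496 CPM against 0.118, 0.113 and 0.237 CPM. The log2 fold change was 1.49 ± 0.32 (SE, edgeR adjusted p = 0.00481). The antisense gene AC020656.1 overlaps LYZ by 733 bases and was counted at 13, 15 and 24 reads against 4, 3 and 9, so the strand from which these reads came cannot be told. Among tested genes under 10 CPM, where LYZ and MS4A3 lie, 15.5% were called higher.

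RNASE2 and PRG2 are granule proteins best known from eosinophils. RNASE2 (ENSG00000169385, chromosome 14, 20955452 to 20956436, plus strand), the eosinophil-derived neurotoxin, was at 33.8, 40.4 and 42.7 CPM in knockdown against 47.1, 35.0 and 43.3 CPM in control libraries. The groups overlapped, with a log2 fold change of -0.10 ± 0.12 (SE, 95% interval -0.38 to 0.17, edgeR adjusted p = 0.563). Its close relative RNASE3 is similar in sequence and could share reads, and it was at 0.721 CPM in knockdown and 0.523 CPM in control samples. PRG2 (ENSG00000186652, chromosome 11, 57386794 to 57390657, minus strand), the eosinophil major basic protein, had 1, 0 and 0 reads in knockdown against 0, 0 and 1 in control libraries. A count of 0 allows up to 0.0325 and 0.0338 CPM in knockdown replicates 2 and 3 and 0.0322 and 0.0307 CPM in control replicates 1 and 2, so PRG2 was not detectable beyond this depth. The limits cover counting error only. AP000781.2 overlaps PRG2 on the same strand by 3293 bases, so reads there can be shared.

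**Figure D4:**
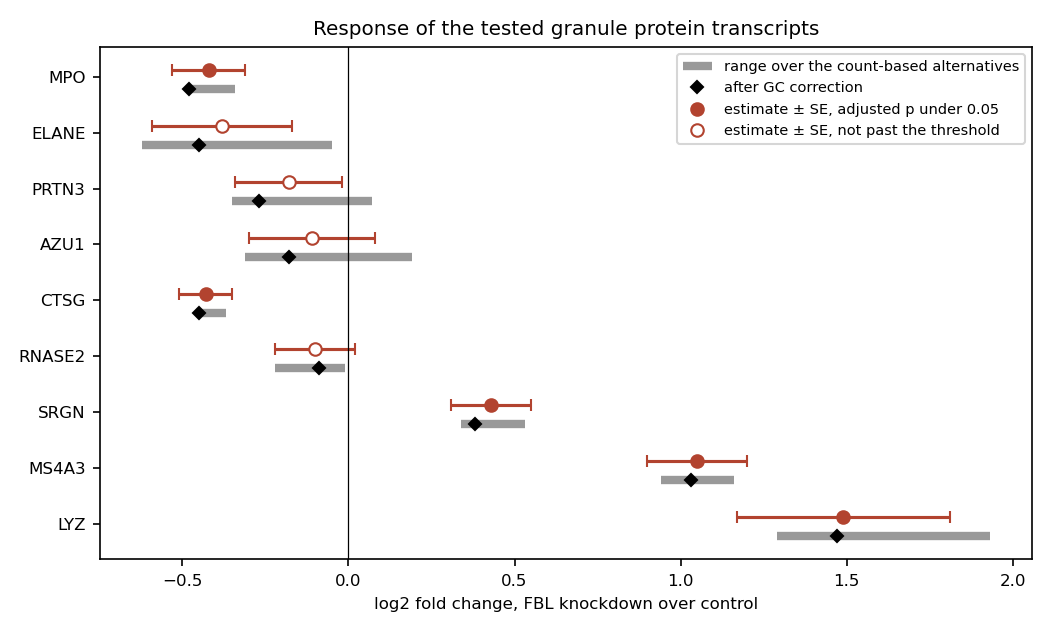
Log2 fold change of knockdown over control for the 9 tested granule genes. Red points give the estimate ± SE (n = 3 against 3), filled where the adjusted p was under 0.05, grey bars the range over the count-based alternatives, and black diamonds the value after GC correction. MPO and CTSG lie left of 0 and SRGN, MS4A3 and LYZ right of it over their whole bars. The bars of ELANE and RNASE2, which were not called, also lie left of 0, and those of PRTN3 and AZU1 cross 0.

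Further genes of the granule programme were read from 6 lists. The counts below stand beside 15.8% higher and 17.0% lower over all tested genes. Of 12 tested genes that encode other azurophil and lysosome-like cargo, 3 rose and 2 fell, with a median log2 fold change of 0.17. Without knockdown replicate 2 or control replicate 3 these counts were 1 and 1, and without knockdown replicate 3 1 fell. The cholesterol carrier NPC2 rose (0.45 ± 0.09), and so did the weak defensin DEFA3 (1.38 ± 0.43), whose near-identical copies can share reads and whose call was lost in 5 of 19 alternatives. CTSC, which encodes the dipeptidase cathepsin C, fell to 86.7 ± 2.38 CPM in knockdown, against 113 ± 5.65 CPM in control samples (SD, n = 3 each), a log2 fold change of -0.38 ± 0.08 (edgeR adjusted p = 0.00375). CD63, a granule membrane tetraspanin, was at 0.20 ± 0.07 (edgeR adjusted p = 0.0591) and gained a call in 7 of 20. The abundant azurophil protease PRSS57, with 67.7% GC, followed the pattern of ELANE. It was at 355, 307 and 338 CPM in knockdown against 273, 643 and 397 CPM in control libraries, with -0.39 ± 0.23 (edgeR adjusted p = 0.225), and fell by 0.46 after the GC correction (edgeR adjusted p = 0.0033).

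Most genes of the later specific and gelatinase granules were too low to test. Of 17 listed, 13 were found and 2 passed the filter, and 0 of the 2 was called by edgeR. CYBA, a subunit of the NADPH oxidase, was at 112 CPM in knockdown and 111 CPM in control samples (0.02 ± 0.18, edgeR adjusted p = 0.958), a value at or below 0 in 5 of 20 alternatives. The gelatinase MMP9 was at 0.127 against 0.0764 CPM (0.75 ± 0.51, edgeR adjusted p = 0.286).

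Among 12 tested genes for protease activation and inhibition, 4 rose and 2 fell (median log2 fold change 0.25). Without control replicate 3, 2 rose, and 1 fell when any library but control replicate 2 was left out. The cystatin CST3, an inhibitor of cysteine proteases, rose most, to 48.1 ± 1.91 CPM in knockdown against 26.0 ± 3.69 CPM in control samples (SD, n = 3 each; 0.89 ± 0.11, edgeR adjusted p = 0.000188). The aminopeptidase-like cathepsin CTSH (0.41 ± 0.08) and cystatin F, CST7, an inhibitor of cathepsin C (0.37 ± 0.10), rose as well. The call of CST7 was lost in 3 of 20 alternatives. SERPINB1, an intracellular inhibitor of elastase (0.11 ± 0.08, edgeR adjusted p = 0.348), and SLPI, a secreted one (0.40 ± 0.15, edgeR adjusted p = 0.0552), did not pass, and SLPI gained a call in 8 of 20. Outside the naming rule, after their values were seen, the other calls were cystatin B, CSTB (0.32 ± 0.08), and, with CTSC, the elastase inhibitor SERPINA1 (-0.25 ± 0.08), which lost its call in 12 of 20. Of 7 tested eosinophil, basophil and mast cell granule genes 3 rose and 0 fell (median log2 fold change 0.47), all at low levels. The tryptases TPSAB1 (4.26 against 2.33 CPM, 0.87 ± 0.13) and TPSB2 (4.98 against 3.22 CPM, 0.63 ± 0.17) are near-identical and can share reads. The remaining call, also added after its value was seen, was the Charcot-Leyden crystal gene CLC (0.682 against 0.327 CPM, 1.06 ± 0.22).

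Of 33 tested genes that build proteoglycan chains or haem, or fold and sort granule cargo, 11 fell and 5 rose. Their median log2 fold change was -0.20. Of all tested genes of at least 10 CPM, 27.7% were called lower. Some of the 33 lay below 10 CPM, such as LYST (7.54 CPM) and VPS45 (1.4 CPM). Without knockdown replicate 2, 7 fell and 3 rose, without knockdown replicate 3, 6 fell and 2 rose, and without control replicate 3, 7 fell and 3 rose. The endoplasmic reticulum chaperones HSPA5 (-1.09 ± 0.10) and calnexin, CANX (-0.65 ± 0.08), fell. Calreticulin, CALR, binds the MPO precursor as calnexin does, and was at 2676 CPM against 3161 CPM (-0.24 ± 0.09, edgeR adjusted p = 0.0563), with a call gained in 7 of 20 alternatives. The chondroitin polymerising factor CHPF (1.22 ± 0.19) and B4GALT7 (0.92 ± 0.12), an enzyme of the linker that joins glycan chains to proteoglycans such as serglycin, rose. In contrast, the chondroitin synthase CHSY1 (-0.60 ± 0.08) and the linker enzyme B3GAT3 (-0.48 ± 0.13) fell, both named after their values were seen. Named after their values were seen, the other genes that rose were the sulphotransferase CHST12 (0.41 ± 0.11), ALAS1 (0.25 ± 0.08), for the first step of haem synthesis, and GNPTAB (0.40 ± 0.13), for the mannose phosphate tag of lysosomal enzymes. The call of ALAS1 was lost in 7 of 20 alternatives, that of GNPTAB in 6 and that of CHST12 in 2. Among later haem synthesis genes, ALAD (-0.40 ± 0.12), UROD (-0.32 ± 0.08), CPOX (-0.37 ± 0.09) and PPOX (-0.48 ± 0.10) fell, with calls lost in 7 of 20 alternatives for ALAD, 3 for UROD, 1 for CPOX and 0 for PPOX. The call of B3GAT3 was lost in 5. HAX1, mutated in severe congenital neutropenia, was at -0.22 ± 0.08 (edgeR adjusted p = 0.0509) and gained a call in 5 of 20.

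Of 15 tested transcription factors of the granule genes, 4 rose and 1 fell (median log2 fold change -0.09). Without knockdown replicate 2, 1 rose, and without control replicate 3, 2 rose. Without control replicate 1, 3 fell, and without control replicate 2, 2 fell. GFI1, a repressor required for neutrophil development, fell to 151, 155 and 149 CPM in knockdown, against 211, 208 and 203 CPM in control libraries (-0.45 ± 0.07, edgeR adjusted p = 0.00107), a call kept in all 20 alternatives. CUX1 (0.46 ± 0.08), a repressor of late myeloid genes, and ETV6 (0.39 ± 0.10) rose, as did LEF1 (0.38 ± 0.10), added after its value was seen. CEBPA, the factor of granulocytic commitment, rose to 37.8, 32.7 and 34.1 CPM in knockdown, against 21.9, 31.9 and 25.3 CPM in control libraries (0.40 ± 0.13, edgeR adjusted p = 0.0341), a call lost in 8 of 20 alternatives, among them the omission of any library except control replicate 2. CEBPE, the promyelocyte factor, was at 154, 124 and 131 CPM against 122, 210 and 160 CPM (-0.27 ± 0.17, edgeR adjusted p = 0.247), and SPI1, which encodes PU.1, at -0.20 ± 0.13 (edgeR adjusted p = 0.274). Like ELANE, both are rich in GC (62.9% and 65.1%), and after the GC correction both fell (CEBPE by 0.34, edgeR adjusted p = 0.00397, and SPI1 by 0.31, edgeR adjusted p = 0.000696). CEBPA is also rich in GC (65.9%). After the correction it was at 33.4, 33.5 and 33.2 CPM in knockdown against 27.6, 27.1 and 26.9 CPM in control libraries. Libraries were left out only without this correction. RUNX1 (0.15 ± 0.09), RUNX1T1 (0.06 ± 0.11) and MYB (-0.18 ± 0.11) did not pass, with edgeR adjusted p of 0.217, 0.698 and 0.251, and RUNX1T1 was at -0.03 without control replicate 2. Counts per gene do not separate the RUNX1-RUNX1T1 fusion transcript from other transcripts of RUNX1 or RUNX1T1.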

How the data were processed

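The authors deposited whole-number counts per Ensembl gene and gene lengths for 6 libraries, and a second table of RPKM values. Per the submitters' processing notes, cutadapt 1.18, HISAT2, featureCounts, edgeR and GRCh38 were used. Strandedness, gene model version and treatment of multi-mapped reads are not given in the sources used, so near-identical and overlapping genes may share reads. Recomputing RPKM from counts, lengths and scaled totals matched 191796 of 191796 values that the authors deposited, to a relative difference of 1e-06. No column was left unused (0).

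Counts were filtered with filterByExpr (minimum count 10, minimum total 15), given TMM library factors and tested with edgeR 4.0.16 in R 4.3.3 by the quasi-likelihood test on group, with Benjamini-Hochberg adjustment over 18486 genes and a threshold of 0.05. Standard errors came from the F statistic. The test was tried on simulated data with known changes, drawn without a GC trend between libraries. DESeq2 1.42.0, limma 3.58.1 (voom, and limma-trend on log2(RPKM + 1) and log2(RPKM + 0.1), which understate changes of low genes), other scalings and filters, a replicate block, a loess correction for transcript GC content (span 0.5) and the omission of each library were alternatives. Positions and GC content of the longest transcript came from GENCODE 29 on GRCh38.

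The genes and lists were chosen with earlier results of these data known. Named beside the granule genes were, per list, up to 4 genes with the largest called change at 1 CPM or more and the 2 with the highest RPKM, or the 2 smallest p where none was called, as well as 7 fixed transcription factors and coding neighbours within 50 kb. DEFA3 and other called genes outside the rule were added after their values were seen. Some genes that the rule or the lists hold are not reported here.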

Additional observations from a re-analysis of the deposited data

How the results depend on the processing

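Of the granule genes, CTSG kept direction and call in all 20 alternatives, and MS4A3 and LYZ in the 19 that kept them. The stricter filter removed both, which left 1 granule gene called higher. MPO lost its call in 3 alternatives and SRGN in 4, always in the same direction. ELANE gained a call in 3, PRTN3 in 2, and RNASE2 and AZU1 were called in none. Without control replicate 2 PRTN3 was at 0.07, AZU1 at 0.19, RUNX1T1 at -0.03 and MED16 at 0.17. MED16 was also at 0.02 under upper-quartile scaling, 0.01 with the stricter filter and 0.05 without knockdown replicate 2. CYBA was at -0.05 after the GC correction, -0.03 with the block added, -0.09 without knockdown replicate 1, -0.19 without control replicate 1 and 0.00 without control replicate 3. LYZ was at 0.20 on log2(RPKM + 1), where the pseudocount exceeds its level. Other causes were not tested.

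Same-numbered libraries deviated from their group means with correlations of -0.61, -0.56 and 0.27, and differently numbered ones with correlations of -0.40 to 0.67. These deviations were not corrected for GC content, so they cannot decide whether the numbers pair the samples. With the replicate block MPO (adjusted p = 0.0639, edgeR) and SRGN (adjusted p = 0.086) lost their calls, 1 granule gene was called lower (2 without it), and 3 of the other counts moved to 1 (azurophil cargo higher, azurophil cargo lower, protease control lower), cargo handling higher to 3 and transcription factors higher to 2. FBL was called in all 20 alternatives. Over all genes, 6061 were called, against 3833 with the block, 4055 with the stricter filter (9174 genes tested), 3925 without knockdown replicate 2, 4017 without knockdown replicate 3, 6942 without control replicate 2, 8614 with the GC correction and 8012 with that and the block.

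With the GC correction 4 granule genes, 17 cargo-handling genes and 4 transcription factors were called lower and 5 azurophil cargo genes higher, where 4780 of all genes were called lower (3141 without it) and 3834 higher (2920), and with the block added these were 4 granule genes and 3 transcription factors lower and 5 azurophil cargo genes higher. Upper-quartile scaling, library totals only, scaling without the granule and mitochondrial genes and no filter each left 1 azurophil cargo gene lower. These 4, RLE scaling and the stricter filter left 1 protease-control gene lower. Library totals only left 3 cargo-handling genes higher, and the stricter filter 0 eosinophil-type genes higher. Omitting each library in turn gave 2 to 3 granule genes called higher and 1 to 3 lower (1 without knockdown replicate 2 or 3). Azurophil cargo had 1 to 4 higher and 1 to 2 lower, protease control 2 to 5 and 1 to 2, cargo handling 2 to 6 and 6 to 14, transcription factors 1 to 5 and 1 to 3, and eosinophil-type genes 2 to 4 and 0. Log2 fold changes so obtained ran from -0.35 to 0.07 for PRTN3, -0.31 to 0.19 for AZU1, -0.19 to 0.26 for CYBA, -0.03 to 0.13 for RUNX1T1 and -0.21 to 0.17 for MED16, each end without control replicate 1 or 2.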
